A study of Rattus norvegicus with 16 samples.

Results

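Activity-regulated immediate early genes are transcribed within minutes of strong synaptic input, without new protein synthesis, and their transcripts decay soon after. 6 of them were followed here by Ensembl identifier, of 32883 genes in the count table: Fos (ENSRNOG00000008015), Junb (ENSRNOG00000042838), Egr1 (ENSRNOG00000019422), Npas4 (ENSRNOG00000020009), Nr4a1 (ENSRNOG00000007607) and Arc (ENSRNOG00000043465). The questions were how high each stood in the 4 hippocampal subfields of untreated animals and whether libraries with the same replicate number moved together.

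The RNA came from male Wistar rats of 3 months, 4 animals by the study's methods, which were anaesthetised with isoflurane and decapitated, and no other treatment is named. The granular layer of the dentate gyrus (DG) and the pyramidal cell layers of the 3 CA fields (CA1, CA2, CA3) were cut out by laser capture microdissection, in which a laser frees a chosen cell layer from a stained section. Total RNA libraries gave 4 columns of read counts for each subfield, numbered as replicates 1 to 4 in the labels. With 4 rats for 16 columns, some rats gave more than 1 column. The column names and descriptions also carry a tag for each replicate number, the same in all 4 subfields. Neither the tags nor the labels say that a number stands for a rat. The p-values below take the libraries as independent, which they may not be between subfields. Fits with the number as a block, some of which change a call, are given in full under the dependence on processing.

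Counts per column ranged from 3216512 in CA1 replicate 4 to 11933279 in CA3 replicate 2, with a median of 7848133, and the most abundant gene took 13.5% to 26.3% of them. The columns of CA2 replicates 2 and 4 differed by no more than sampling noise (chi-square per degree of freedom 1.0007), and those of DG replicates 2 and 4 by hardly more (1.04), against 2.82 to 43.9 for the other 22 pairs of columns within a subfield. Each of these pairs was summed and counted as 1 library, called replicate 2-4, which left 14 libraries: 4 of CA1, 3 of CA2, 4 of CA3 and 3 of DG. Which replicate number a summed library belongs to is not known.

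In background, neuronal calcium entry switches these genes on through transcription factors already bound at their promoters, among them CREB on cAMP response elements and serum response factor on CArG boxes. Fos and Junb proteins pair to form AP-1, Egr1 is a zinc finger factor, Nr4a1 an orphan nuclear receptor, and Npas4 a neuron-specific factor that responds closely to calcium. Arc protein is no transcription factor: it acts at synapses, where it promotes the removal of AMPA receptors. In the hippocampus these transcripts are widely used to mark recently active neurons.

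The promoter sequences of these genes, shown because such response elements lie there, differ in the motifs they hold. RefSeq (build GRCr8, whereas the counts were made on Rnor6) gave the 300 bases from 250 before to 50 after the start for 4 of the 6 genes, and the promoter set used here held none for Fos and Arc. The windows are chr18:26736828-26737127 (plus strand) for Egr1, chr19:40080876-40081175 (plus) for Junb, chr1:211716053-211716352 (minus) for Npas4 and chr7:134259888-134260187 (plus) for Nr4a1. Capitals mark every match, on either strand, to the motifs searched.
Egr1: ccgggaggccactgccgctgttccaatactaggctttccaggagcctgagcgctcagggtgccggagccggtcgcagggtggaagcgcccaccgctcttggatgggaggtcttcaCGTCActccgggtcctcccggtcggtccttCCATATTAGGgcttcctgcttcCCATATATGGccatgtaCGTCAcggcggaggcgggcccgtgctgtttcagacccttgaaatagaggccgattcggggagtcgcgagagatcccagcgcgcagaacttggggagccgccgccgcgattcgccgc
Junb: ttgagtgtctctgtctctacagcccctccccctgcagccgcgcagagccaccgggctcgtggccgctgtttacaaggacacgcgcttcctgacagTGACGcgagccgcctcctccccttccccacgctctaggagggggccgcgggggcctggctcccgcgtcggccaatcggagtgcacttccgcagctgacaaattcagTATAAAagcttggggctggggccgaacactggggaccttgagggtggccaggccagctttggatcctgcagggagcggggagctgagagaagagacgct
Npas4: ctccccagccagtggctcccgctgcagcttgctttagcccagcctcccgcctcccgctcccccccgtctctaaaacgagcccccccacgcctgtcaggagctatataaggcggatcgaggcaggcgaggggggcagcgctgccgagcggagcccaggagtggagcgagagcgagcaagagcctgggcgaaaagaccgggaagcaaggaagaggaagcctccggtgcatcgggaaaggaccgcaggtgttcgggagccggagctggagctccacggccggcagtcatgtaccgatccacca
Nr4a1: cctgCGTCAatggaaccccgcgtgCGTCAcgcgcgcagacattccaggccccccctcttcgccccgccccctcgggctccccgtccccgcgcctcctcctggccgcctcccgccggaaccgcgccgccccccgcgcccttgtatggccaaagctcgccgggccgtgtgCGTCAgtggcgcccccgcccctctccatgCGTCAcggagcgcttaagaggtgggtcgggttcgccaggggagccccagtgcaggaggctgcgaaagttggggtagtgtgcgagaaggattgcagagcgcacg

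The whole cAMP response element TGACGTCA was in none of these 4 windows, and it was in 1.83% of all 33469 promoters of this length. Its core TGACG, which is also part of the whole element, occurred 4 times in Nr4a1, 2 times in Egr1 and 1 time in Junb. At least 1 core was in 21.2% of all promoters, at least 2 in 4.96% and at least 4 in 0.236%. Egr1 held 2 CArG boxes, against at least 1 in 1.64% of promoters and at least 2 in 0.0209%. The TATA box TATAAA was found in Junb, as in 14.2% of promoters. The AP-1 site TGANTCA (7.33% of promoters) and the EGR site GCGTGGGCG (0.544%) were in none of the 4, and the Npas4 window held none of the letters searched. Only the letters given were searched, so an element spelled otherwise would be missed, in Npas4 as in the other windows. A match describes the letters in the window and no binding was measured.

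All 6 genes were measured in every library, with 16 to 1136 counts per library over the 14, and all passed the filter on low counts that 17174 genes passed. Levels are given as CPM, the counts of a gene scaled to a common library size, after TMM normalization, which evens out library composition, and are compared only within a gene because gene lengths were not used. A change in CPM does not tell fewer expressing cells from less RNA per cell. A difference is described as called where edgeR's quasi-likelihood test gave it an adjusted p below 0.05, with the adjustment made over all genes tested.

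Nr4a1 had the widest range over the subfields as a fold difference. It stood at 36.8, 27.3, 27.0 and 35.3 CPM in CA1 replicates 1 to 4 and at 19.7, 26.7 and 20.7 CPM in CA2 replicates 1, 2-4 and 3. The CA3 libraries were at 4.32, 6.22, 6.56 and 10.2 CPM and those of DG at 2.91, 3.77 and 2.75 CPM. The libraries of the 4 subfields did not overlap, in the order CA1, CA2, CA3, DG, with means of 31.6 ± 5.16 (SD, n = 4), 22.4 ± 3.79 (n = 3), 6.83 ± 2.46 (n = 4) and 3.15 ± 0.544 (n = 3) CPM. The step from CA2 to CA3 was a log2 fold change of 1.74 ± 0.21 (SE; edgeR quasi-likelihood, adjusted p = 5.82e-06) and that from CA3 to DG 1.04 ± 0.25 (adjusted p = 0.00253). Between CA1 and CA2 the highest CA2 library lay just below the lowest CA1 library, and the difference of 0.48 ± 0.19 did not pass edgeR's test (adjusted p = 0.0979). That difference passed without CA2 replicate 2-4 (0.66, edgeR adjusted p = 0.0485) and without CA3 replicate 4 (0.50, adjusted p = 0.0448), in a range of 0.0448 to 0.290 when each of the 14 libraries was left out in turn. With no filter on low counts it was 0.0486 (edgeR), and the difference passed in 4 of 6 fits with the replicate number as a block.

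Npas4 followed the same order of means. It was 21.0, 10.7, 28.2 and 20.1 CPM in CA1 replicates 1 to 4, 8.91, 12.4 and 11.02 in CA2 replicates 1, 2-4 and 3, 5.31, 5.01, 3.38 and 6.48 in the CA3 replicates, and 3.28, 3.96 and 2.28 in DG. CA1 replicate 2 fell among the CA2 libraries, CA2 lay above all CA3 libraries, and CA3 and DG overlapped. The means were 19.998 ± 7.18 (SD, n = 4), 10.8 ± 1.75 (n = 3), 5.05 ± 1.28 (n = 4) and 3.17 ± 0.848 (n = 3) CPM. CA1 exceeded CA2 by 0.87 ± 0.25 on the log2 scale (SE; edgeR quasi-likelihood, adjusted p = 0.0235) and CA2 exceeded CA3 by 1.13 ± 0.28 (adjusted p = 0.0117), while CA3 and DG differed by 0.60 ± 0.32 (adjusted p = 0.142). The CA1 to CA2 call was lost without CA1 replicate 3 (0.65, edgeR adjusted p = 0.110), CA2 replicate 1 (0.79, 0.0875) or CA2 replicate 3 (0.88, 0.0791), with 0.00109 to 0.110 over the leave-outs. The CA2 to CA3 call was lost without CA2 replicate 2-4 (0.997, edgeR adjusted p = 0.0748) or CA3 replicate 3 (0.95, 0.0574), with 0.00173 to 0.0748 over the leave-outs, and without both summed libraries (1.01, 0.0780). With the replicate number as a block it passed in 5 of 6 fits, and CA3 against DG passed in 2 of 6.

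Arc, the synaptic effector, was 117 CPM in CA1 replicate 1, 45.9 in replicate 2, 98.2 in replicate 3 and 120.3 in replicate 4. It was 40.3, 63.1 and 45.2 CPM in CA2 replicates 1, 2-4 and 3, 28.3, 36.3, 27.1 and 42.5 in CA3, and 19.7, 21.4 and 21.1 in DG. DG lay below every other library, at a mean of 20.7 ± 0.931 CPM (SD, n = 3). CA1 (95.4 ± 34.4, n = 4) overlapped CA2 (49.6 ± 11.99, n = 3) through CA1 replicate 2, and CA2 overlapped CA3 (33.5 ± 7.22, n = 4). CA1 exceeded CA2 by 0.93 ± 0.24 on the log2 scale (SE; edgeR quasi-likelihood, adjusted p = 0.0102), CA2 and CA3 differed by 0.57 ± 0.24 (adjusted p = 0.184), and CA3 exceeded DG by 0.68 ± 0.25 (adjusted p = 0.0361). Without CA1 replicate 2 the CA2 to CA3 difference passed (0.57, edgeR adjusted p = 0.0327; 0.0327 to 0.643 over the leave-outs), as it did with no filter on low counts (0.0295). It also passed in 3 of 6 fits with the replicate number as a block. The CA1 to CA2 call was lost without CA2 replicate 1 (0.83, edgeR adjusted p = 0.0512) or CA2 replicate 3 (0.86, 0.0621; lowest of the leave-outs 8.99e-05). The CA3 to DG call was lost in 7 of the 14 leave-outs, at values of 0.55 to 0.68: without CA1 replicate 3 (0.0532), CA2 replicate 3 (0.0513), CA3 replicate 2 (0.0767), CA3 replicate 4 (0.106) or DG replicate 1 (0.0994), 2-4 (0.0992) or 3 (0.0925), with 0.00340 as the lowest. Without both summed libraries it was lost too (0.68, edgeR adjusted p = 0.0877).

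Egr1 separated CA1 from the rest more evenly. Its levels were 50.2, 40.8, 47.7 and 51.3 CPM in CA1 replicates 1 to 4 and 17.98, 32.5 and 26.5 in CA2 replicates 1, 2-4 and 3. They were 17.9, 20.7, 23.9 and 21.6 CPM in CA3 and 10.6, 15.4 and 17.97 in DG. Every CA1 library was above every other library, CA2 and CA3 overlapped, and CA3 and DG met at CA3 replicate 1 and DG replicate 3. CA1 (47.5 ± 4.74 CPM, SD, n = 4) exceeded CA2 (25.6 ± 7.29, n = 3) by 0.87 ± 0.17 on the log2 scale (SE; edgeR quasi-likelihood, adjusted p = 0.00133). CA2 and CA3 (21.0 ± 2.47, n = 4) differed by 0.30 ± 0.18 (edgeR adjusted p = 0.418), and CA3 exceeded DG (14.6 ± 3.76, n = 3) by 0.50 ± 0.18 (adjusted p = 0.0359). The last call was lost in 7 of the 14 leave-outs, at values of 0.32 to 0.51: without CA1 replicate 3 (edgeR adjusted p = 0.0551), CA2 replicate 3 (0.0556), CA3 replicates 2 (0.0549), 3 (0.101) or 4 (0.0630), or DG replicates 1 (0.205) or 2-4 (0.0945), with 0.0175 as the lowest, and without both summed libraries (0.50, 0.0710).

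Junb, a partner in AP-1, had another order, with DG beside CA2. It was 61.8, 25.3, 44.9 and 45.2 CPM in CA1 replicates 1 to 4, 26.6, 30.4 and 25.6 in CA2 replicates 1, 2-4 and 3, 19.5, 16.7, 21.4 and 19.1 in the CA3 replicates, and 28.0, 23.2 and 27.2 in DG. CA3 lay below all other libraries, CA2 and DG overlapped, and CA1 was above both except in replicate 2. CA1 (44.3 ± 14.9 CPM, SD, n = 4) exceeded CA2 (27.5 ± 2.53, n = 3) by 0.68 ± 0.20 (log2, SE; edgeR quasi-likelihood, adjusted p = 0.0233). CA1 exceeded DG (26.2 ± 2.56, n = 3) by 0.76 ± 0.20 (edgeR adjusted p = 0.00550), and CA2 and DG differed by 0.09 ± 0.21 (adjusted p = 0.796). CA3 (19.2 ± 1.93, n = 4) differed from CA2 by 0.53 ± 0.20 (CA2 over CA3; edgeR adjusted p = 0.135) and from DG by -0.44 ± 0.20 (CA3 over DG; adjusted p = 0.0883), neither of which passed although the libraries did not overlap.

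Leaving out 1 library moved several of these Junb results across the threshold, most of them with little change in the difference itself. The CA1 to CA2 call was lost without CA1 replicate 1 (0.46, edgeR adjusted p = 0.108), CA2 replicate 1 (0.68, 0.0603) or CA2 replicate 3 (0.63, 0.110), with 0.000291 as the lowest of the leave-outs. The CA1 to DG call was lost without DG replicate 2-4 (0.64, edgeR adjusted p = 0.0542), where the leave-outs began at 3.97e-05, and without both summed libraries (0.64, 0.0573). The CA2 to CA3 difference passed without CA1 replicate 2 (0.53, edgeR adjusted p = 0.0218; up to 0.404). The CA3 to DG difference passed without CA1 replicate 1 (-0.47, edgeR adjusted p = 0.0350) or CA1 replicate 2 (-0.44, 0.0161; up to 0.197). With no filter on low counts the CA2 to CA3 and CA3 to DG differences passed as well (edgeR adjusted p = 0.0405 and 0.0232). Each also passed in 3 of 6 fits with the replicate number as a block.

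Fos, the other partner in AP-1, had the fewest counts in all (745), with 25 to 158 per column or library. It was 16.3 CPM in CA1 replicate 1, 2.39 in replicate 2, 7.88 in replicate 3 and 14.2 in replicate 4. The CA2 replicates 1, 2-4 and 3 were at 5.47, 7.63 and 2.78 CPM, the CA3 replicates at 3.71, 2.33, 2.64 and 5.67, and the DG replicates 1, 2-4 and 3 at 5.10, 8.18 and 4.79. All 4 subfields overlapped, and CA1 held both the highest level and one of the 2 lowest. The 26 counts of CA1 replicate 2 gave an exact Poisson interval of 1.56 to 3.51 CPM at 95% confidence and the 158 of replicate 1 one of 13.9 to 19.0, which cover counting error only, so the gap between these libraries was wider than counting error. The means were 10.2 ± 6.32 (SD, n = 4) in CA1, 6.02 ± 1.88 (n = 3) in DG, 5.29 ± 2.43 (n = 3) in CA2 and 3.59 ± 1.51 (n = 4) in CA3.

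Of the 6 comparisons of Fos only CA1 against CA3 passed, at 1.51 ± 0.44 on the log2 scale (SE; edgeR quasi-likelihood, adjusted p = 0.0149). That call was lost without CA1 replicate 1 (1.06, edgeR adjusted p = 0.101), CA3 replicate 2 (1.33, 0.0550) or CA3 replicate 3 (1.39, 0.0517), with 0.000415 as the lowest of the leave-outs. Without CA1 replicate 2, CA1 also exceeded CA2 (1.26, edgeR adjusted p = 0.0217, against 0.89 ± 0.45 and 0.225 with it; up to 0.598) and DG (1.02, 0.0336, against 0.65 ± 0.44 and 0.307 with it; up to 0.820). CA3 stood at -0.86 ± 0.47 against DG (edgeR adjusted p = 0.163, and 0.0301 with no filter on low counts) and CA2 at -0.24 ± 0.49 against DG (adjusted p = 0.750). CA2 and CA3 differed by 0.62 ± 0.49 (edgeR adjusted p = 0.590), with 0.20 without CA2 replicate 2-4 and 0.94 without CA2 replicate 3. With the replicate number as a block, CA1 against CA3 passed in all 6 fits. CA1 against CA2 and CA3 against DG then passed in 3 each and CA1 against DG in 2.

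**Figure D1:**
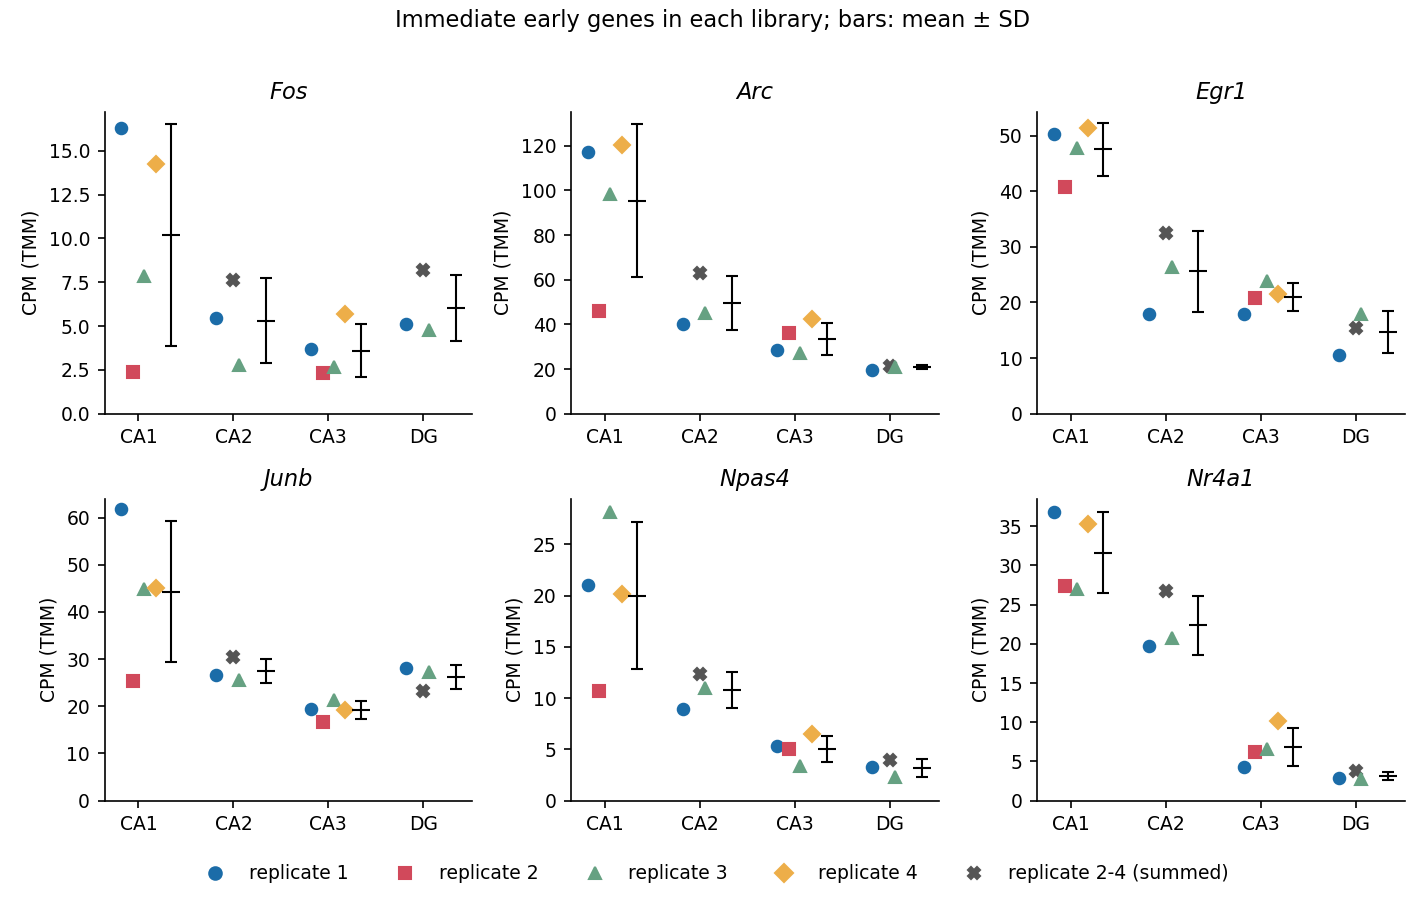
Level of each gene in CPM (vertical axis, linear from 0) in each of the 14 libraries by subfield; the symbol gives the replicate number, a cross the summed library 2-4, and the bar the mean ± SD. CA1 is the highest mean in all 6 panels, DG the lowest for Nr4a1, Npas4, Arc and Egr1, and CA3 the lowest for Junb and Fos.

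Set side by side, the 6 comparisons share libraries and are not independent of each other. In CA1 against CA3 all 6 genes were called higher in CA1, where 24.8% of the 17174 genes tested were called in either direction and 12.1% as higher in CA1. The log2 fold changes were 2.23 for Nr4a1 (edgeR adjusted p = 2.17e-08), 1.999 for Npas4 (3.68e-06), 1.51 for Fos, 1.502 for Arc (2.83e-05), 1.21 for Junb (4.24e-05) and 1.17 for Egr1 (1.21e-05). Their median was 1.504, beside -0.000288 for all genes tested.

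In CA1 against DG 5 of 6 were called higher in CA1 (background 29.4%, and 15.1% higher in CA1), all but Fos. The values were 3.27 for Nr4a1 (edgeR adjusted p = 5.53e-10), 2.604 for Npas4 (4.77e-07), 2.19 for Arc (8.43e-07) and 1.67 for Egr1 (3.30e-07), with Junb at 0.76. For Nr4a1 this is a 9.63-fold difference. The median of the 6 was 1.93, beside -0.01 for all genes.

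In CA1 against CA2 4 of 6 were called higher in CA1, all but Fos and Nr4a1 (background 14.3%, and 6.31% higher in CA1), with a median of 0.87 beside -0.01. Between the neighbouring subfields CA2 and CA3 only Npas4 and Nr4a1 were called, both higher in CA2, where the background was 7.65%, and 4.16% higher in CA2. All 6 values lay above 0 there, with a median of 0.60 beside 0.01 for all genes, of which 51.6% lay above 0. Without CA2 replicate 2-4, Egr1 fell to 0.08, Fos to 0.20 and Arc to 0.34, their lowest over the leave-outs. The lowest for Junb, Npas4 and Nr4a1 were 0.43, 0.95 and 1.58.

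Against the granule cells, CA2 was called higher for 4 of 6 genes (background 35.4%, and 18.9% higher in CA2). They were Nr4a1 at 2.78 (edgeR adjusted p = 1.27e-08), Npas4 at 1.73 (0.000165), Arc at 1.26 (0.000767) and Egr1 at 0.80 (0.00269). The Egr1 call was lost without both summed libraries (0.59, edgeR adjusted p = 0.0688). CA3 was called higher than DG for Nr4a1, Arc and Egr1, 3 of 6, in a comparison where 40.2% of genes were called and 20.6% as higher in CA3. Fos and Junb were the only genes of the 6 with a mean in DG above that in CA3. In the main fit no gene of the 6 was called lower in the first subfield of any of the 6 comparisons. Over all genes, the calls in each comparison that were not higher in the first subfield were lower in it. With no filter on low counts, Fos and Junb passed as lower in CA3 than in DG (edgeR adjusted p = 0.0301 and 0.0232). Each also passed there in 3 of 6 fits with the replicate number as a block.

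**Figure D2:**
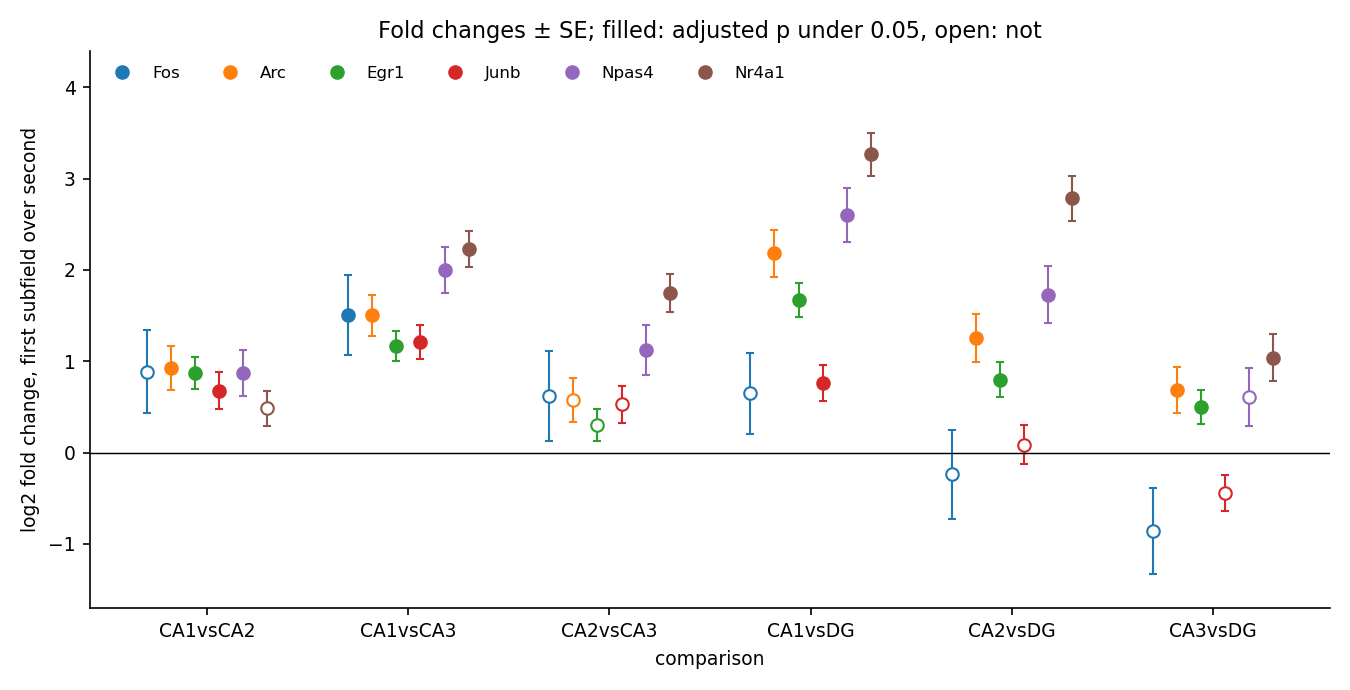
Log2 fold change of each gene (vertical axis, first subfield over second) with its standard error in the 6 comparisons (horizontal axis); filled points have an adjusted p under 0.05. The points spread from Fos at 0.65 to Nr4a1 at 3.27 in CA1vsDG and from Fos at -0.24 to Nr4a1 at 2.78 in CA2vsDG, and the points below 0 are Fos and Junb in comparisons with DG.

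Whether columns with the same replicate number moved together was tested on the 12 libraries that are not repeated, as the effect of the number beside that of the subfield. Numbers 1 and 3 then had a library in each subfield, and numbers 2 and 4 only in CA1 and CA3. Of 16720 genes tested 1892 (11.3%) differed between numbers, and of the 6 immediate early genes 2 did, Fos (edgeR quasi-likelihood, adjusted p = 0.000446) and Junb (adjusted p = 0.0106). The others did not pass, with edgeR adjusted p of 0.109 for Arc, 0.166 for Egr1, 0.195 for Npas4 and 0.269 for Nr4a1. With no filter on low counts Arc (edgeR adjusted p = 6.21e-05) and Npas4 (0.0219) passed as well, while DESeq2 gave them adjusted p of 0.657 and 0.595.

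For Fos the number took up 77.0% of the variation in log2 CPM that was left after the subfield means, above 82.9% of all genes. In CA1 and in CA3 the lowest Fos level was that of number 2, at 2.39 and 2.33 CPM. Number 4 was the highest in CA3 (5.67) and next to number 1 in CA1 (14.2). Number 1 exceeded number 3 in 4 of 4 subfields, by 1.03 (log2) in CA1, 0.92 in CA2 and 0.45 in CA3, while DG differed by 0.09.

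The Fos call held when any library, or all libraries of any number, was left out (edgeR adjusted p 2.61e-06 to 0.0179 over these 16 fits). Without a CA1 or CA3 library of number 2 or 4, that number was left with a single library, where a pass cannot show shared movement. The Fos call depended on where the summed libraries were placed. With the summed CA2 library in number 2, where its 7.63 CPM met the low libraries of that number, edgeR's adjusted p was 0.201 or 0.0539, by the placing of DG. With it in number 4 it was 0.0292 or 9.18e-05. With all 16 columns as deposited it was 0.151 (edgeR). The share was 36.1% or 47.7% with the summed CA2 library in number 2, 53.9% or 79.3% with it in number 4, and 32.4% with all 16 columns.

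For Junb the share was 68.7%, above 72.6% of genes, and the call rested on CA1 replicate 2 (25.3 CPM, against 44.9 to 61.8 in the other CA1 libraries). Without that library the edgeR adjusted p was 0.341, without all of number 2 it was 0.424 and without all of number 1 it was 0.264, in a range from 0.000253 to 0.424 over the leave-outs. With the summed CA2 library in number 2 it was 0.266 or 0.238, with it in number 4 the call held at 0.0284 or 0.0128, and with all 16 columns it was 0.154 (edgeR). The share was 34.3% or 33.6% with it in number 2, at least 57.6% with it in number 4, and 31.8% with all 16 columns. It was 36.8% without all of number 2 and 80.7% without all of number 1. It was 53.3% without CA1 replicate 2 and 89.6% without CA3 replicate 2, where number 2 had a single library left, which the fit matches exactly. Without number 1, CA2 and DG have a single library each and add nothing to the share. These shares come from designs of different size, so they do not show whether the effect was larger or smaller than with all 12 libraries. In CA3 the Junb levels of the 4 numbers lay between 16.7 and 21.4 CPM, with number 2 again the lowest.

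The shares of the other genes were 63.2% for Egr1, 50.1% for Nr4a1, 42.4% for Arc and 30.0% for Npas4, and they moved widely with the libraries used. Numbers 2 and 4 have only a CA1 and a CA3 library, so leaving out either leaves that number with a single library. The fit then matches this library exactly, and the share counts its whole deviation whether or not same-numbered libraries moved together. With no effect of the number, its 3 coefficients would still take up part of what 12 libraries leave after 4 subfield means. A share is therefore not by itself shared movement. The share to be had with no effect also differs between these fits and was not estimated. Arc was at 92.6% without CA3 replicate 2, where number 2 was CA1 replicate 2 alone, and at 20.3% without all of number 4. Npas4 was 8.42% without CA1 replicate 2 and 59.2% without CA3 replicate 2, and Nr4a1 13.2% without CA3 replicate 4 and 80.5% without CA1 replicate 1. Without all libraries of a number the range was 8.37% (number 2) to 70.0% (number 3) for Npas4 and 0.473% (number 4) to 92.4% (number 1) for Nr4a1, and Egr1 was 41.2% without number 3. Over all genes tested the median share was 51.5%, with quartiles of 31.9% and 70.7%, and the median of the 6 was 56.7%. Egr1 showed the opposite order of Fos between numbers 1 and 3: number 1 was lower in CA2 (17.98 against 26.5 CPM), CA3 (17.9 against 23.9) and DG (10.6 against 17.97), and about level in CA1 (50.2 against 47.7).

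Some of the other genes passed the test when 1 library was left out. Arc passed without CA3 replicate 3 (edgeR adjusted p = 0.0156) and without CA1 replicate 1 (0.0190), with up to 0.353 over the leave-outs. The fit without CA3 replicate 2 cannot show shared movement, since number 2 is then CA1 replicate 2 alone. That library deviated from the CA1 mean by -0.96 for Arc and -0.81 for Npas4 (log2). Npas4 passed without CA3 replicate 3 (edgeR adjusted p = 0.00420), against 0.900 without all of number 2. Egr1 passed without CA1 replicate 1 (0.0405; edgeR, up to 0.956). Nr4a1 passed in none of these 16 fits. The count over all genes also moved, to 88 without number 1 and 860 without number 3. It was 1204 and 1232 without CA2 replicate 1 and 3, 1033 without CA3 replicate 1, and 1242 and 1246 without DG replicate 1 and 3.

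**Figure D3:**
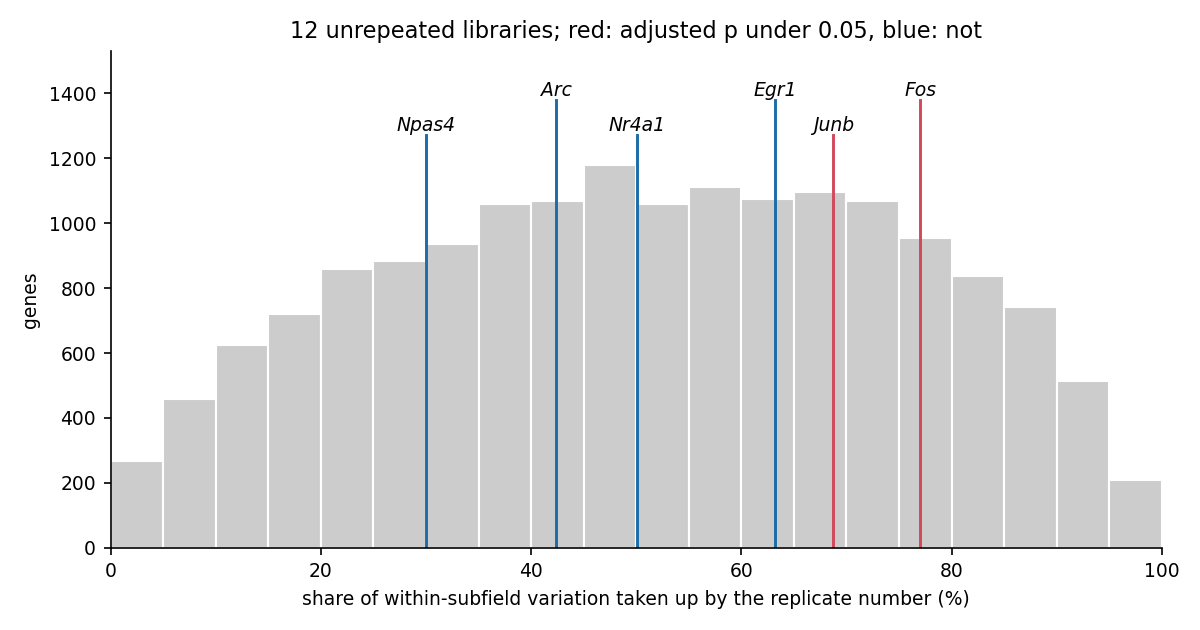
Number of genes (vertical axis) by the share of within-subfield variation in log2 CPM that the replicate number took up (horizontal axis, %), over the 16720 genes tested in 12 libraries, with the 6 immediate early genes as lines. Fos (77.0%) and Junb (68.7%) stand to the right of the median of 51.5% and Npas4 (30.0%) to the left of the lower quartile.

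CA1 replicate 2 was the lowest CA1 library for Fos, Junb, Egr1, Npas4 and Arc, and next to the lowest for Nr4a1. Its deviation from the CA1 mean on the log2 scale was -1.69 for Fos, -0.96 for Arc, -0.81 for Npas4 and -0.73 for Junb. It was -0.21 for Egr1 and -0.19 for Nr4a1. The same number in CA3 was at -0.50 for Fos and at 0.14 for Arc. The summed CA2 library was the highest of CA2 for all 6 genes, by 0.62 above the CA2 mean for Fos, 0.37 for Arc, 0.38 for Egr1, and 0.15 to 0.27 for the others (log2).

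**Figure D4:**
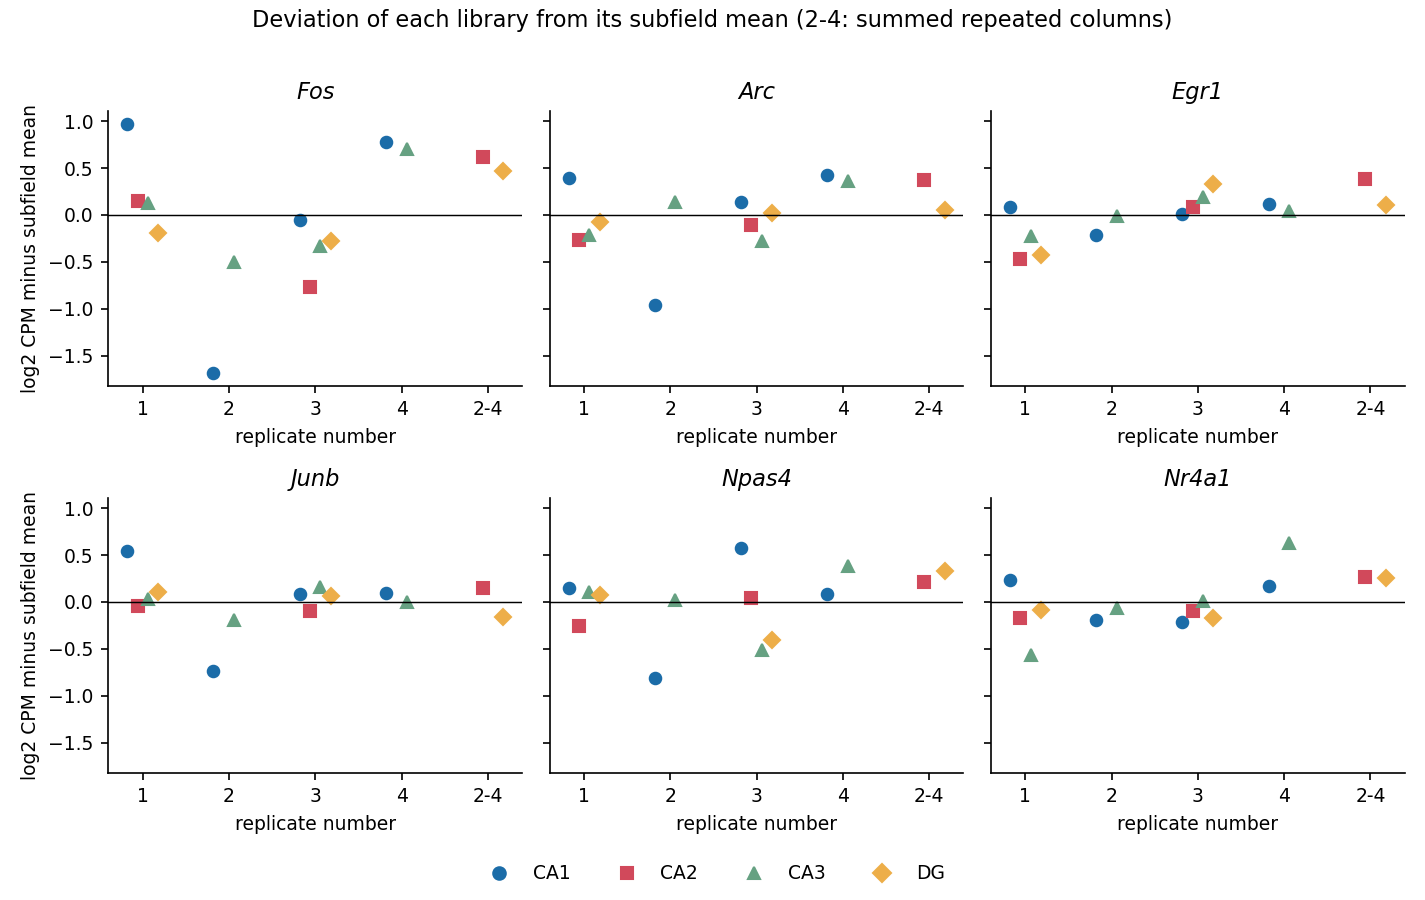
Log2 CPM of each library minus its subfield's mean (vertical axis) by replicate number (horizontal axis, 2-4 for the summed libraries), with the symbol giving the subfield. CA1 replicate 2 is the lowest point for Fos (-1.69), Arc (-0.96), Npas4 (-0.81) and Junb (-0.73).

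Within the subfields the 6 genes moved together in part. Over the 14 libraries, which share their subfield means, the deviations of the 15 pairs of genes had Pearson's r from 0.139 to 0.839, with a median of 0.497 and a median Spearman's rho of 0.398. The highest was Fos with Arc (r = 0.839, rho = 0.714), followed by Fos with Junb (0.755) and Arc with Npas4 (0.752), and the lowest Egr1 with Npas4. Without CA1 replicate 2 the range was -0.333 (Junb with Npas4) to 0.764 (Arc with Nr4a1), with a median of 0.294 over 13 libraries. Fos with Arc was then at 0.577, Fos with Junb at 0.322 and Arc with Junb at 0.0513, so part of the shared movement rested on that library. These values describe the libraries and were not tested.

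**Figure D5:**
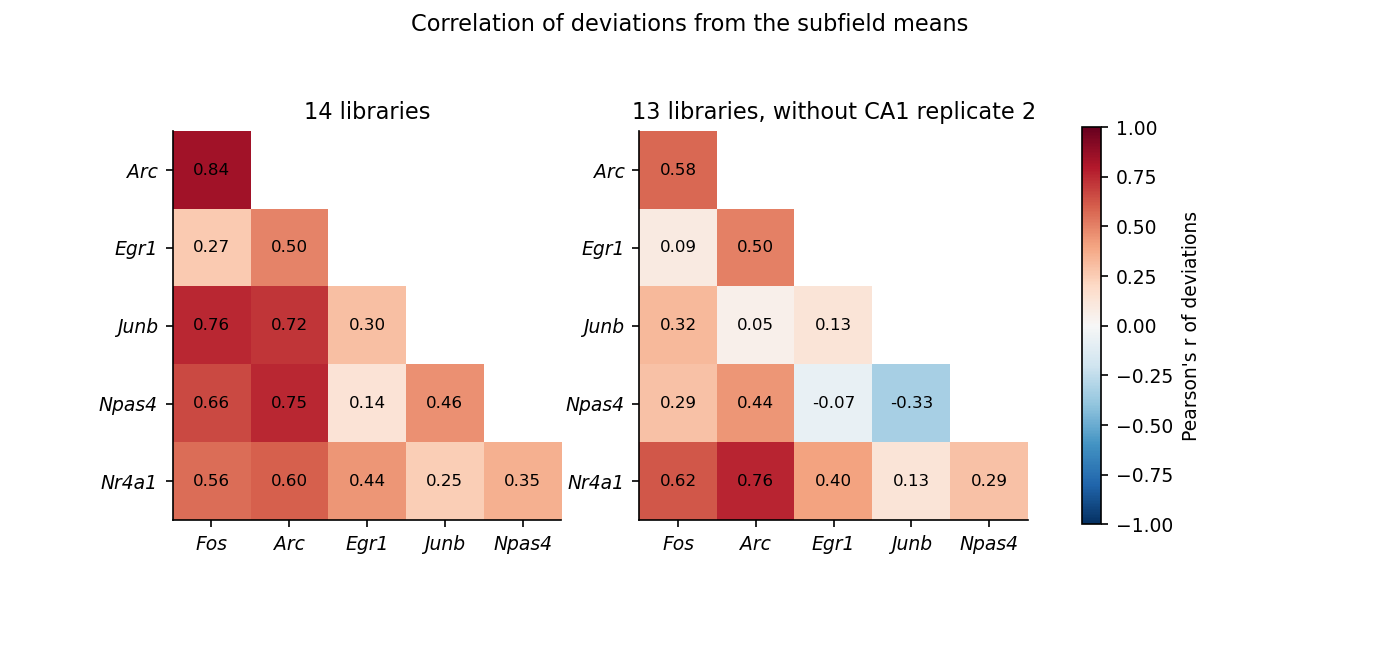
Pearson's r between the deviations of each pair of genes from their subfield means (colour scale from -1 to 1), over 14 libraries on the left and over 13 without CA1 replicate 2 on the right. All 15 values on the left are above 0, from 0.139 to 0.839, and on the right Junb with Npas4 (-0.333) and Egr1 with Npas4 (-0.072) fall below 0.

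Other activity-regulated genes could be matched only where the study's marker genes pair an identifier with a symbol, which held for 288 identifiers. Of 70 genes listed as Fos, Jun, Egr and Nr4a relatives, feedback and effector genes, delayed response genes and signalling genes, 1 could be matched, Btg2 (ENSRNOG00000003300), an antiproliferative gene induced in the same early wave, and the other 69 were not analysed here. Btg2 was highest in DG, at 41.0, 37.6 and 38.9 CPM in replicates 1, 2-4 and 3, and 2.49 to 9.28 CPM in the 11 other libraries. It is among the genes chosen by the study as DG markers on these samples, so this direction is no independent evidence. DG exceeded CA1, CA2 and CA3 by log2 fold changes that were -2.76 ± 0.27 (CA1 over DG), -2.53 ± 0.29 (CA2 over DG) and -2.76 ± 0.26 (CA3 over DG), with edgeR adjusted p of 5.82e-08, 4.68e-07 and 3.49e-08. Between the 3 CA subfields it did not pass in any comparison (edgeR adjusted p 0.708 to 0.995). Pim1 and Cebpd are 2 further genes with a matched symbol and are markers chosen by the study like Btg2. They are in none of these lists and were named outside the rule for naming genes given under the processing. Both were highest in DG, with means of 3.83 CPM against 0.105 to 0.415 (Pim1) and of 21.0 CPM against 2.11 to 3.26 (Cebpd). The Pim1 means in the CA subfields rest on 0 to 12 counts per library, so the size of that difference is poorly measured. The other matched markers were not tallied.

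Among 126 symbol-bearing genes with a mean of at least 5 CPM, Btg2 was nonetheless the one whose deviations from the subfield means were most like the average of the 6 genes (r = 0.782 over 14 libraries), as 33 of 10329 genes, named or not, were more alike. In CA1 it was lowest in replicate 2 (2.49 CPM, against 4.87 to 9.28 in the others), as Fos was. Grm2 (r = 0.771), Zdhhc22 (0.702), Brinp3 (0.689) and Zmat4 (0.660) came next. All 5 had their highest mean in DG, where Grm2 was at 30.6 CPM against 0.637 to 2.41 in the CA subfields and Zmat4 at 98.5 against 8.65 to 24.4. For the levels over the subfields the most alike were RGD1563354 (r = 0.918), Arhgap12 (0.892), Pex5l (0.881), Met (0.880) and Lyzl4 (0.877), all with their highest mean in CA1. The 126 were all marker genes of the study.

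The subfield labels were checked against markers listed for each, of which 8 are given here. Wfs1 and Pex5l had their highest means in CA1 (678.6 ± 79.9 and 337.9 ± 35.9 CPM, SD, n = 4), and Amigo2 (125.0 ± 27.9, n = 3) and Cacng5 (53.2 ± 8.19) in CA2. Cyp26b1 was highest in CA3 (5.62 ± 1.51, n = 4), and Prox1 (348.4 ± 58.1, n = 3), C1ql2 (225.7 ± 42.8) and Dsp (9.42 ± 1.03) in DG. These too are markers chosen by the study on these samples. Markers of glia, interneurons, vessels and choroid plexus, and the heat shock and glucocorticoid-responsive genes, were not analysed here for lack of matched symbols.

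Some libraries had more of another subfield's marker than others of their group. Wfs1 was 106.4 CPM in CA3 replicate 2 against 8.65 to 13.8 in the other CA3 libraries, and Pex5l 69.6 against 39.8 to 46.9. Prox1 was 19.1 CPM in CA3 replicate 4 against 3.21 to 9.76, but the other 2 DG markers did not single out that library: C1ql2 was 8.10 against 5.29 to 7.77, and Dsp was highest in replicate 3 (2.11 against 1.11 to 1.46). In CA2 the summed library had the most Wfs1 (133.8 CPM against 53.6 and 86.8) and the most C1ql2 (5.05 against 0.515 and 0.782). CA1 replicate 2 had the most Amigo2 of CA1 (20.8 CPM against 5.78 to 13.1), while Cacng5 was highest in replicate 3 (9.62 CPM, with 8.38 in replicate 2 and 2.37 and 2.78 in the others). The part of such tissue in the levels of the immediate early genes was not tested, and the results without each library are given beside the calls they change.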

How the data were processed

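The authors aligned paired-end reads of 16 TruSeq Stranded Total RNA libraries with STAR to Rnor6 and deposited raw counts per Ensembl gene; the counting program and its strand setting are not given in the sources used here, so reads of overlapping antisense genes cannot be told apart. Their tables of fold changes and p-values per comparison (DESeq2) were not used.

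Each pair of repeated columns was summed. Genes with more than 10 counts over the libraries were tested in edgeR 4.0.16 (R 4.3.3) with TMM, 1 coefficient per subfield, the quasi-likelihood F-test and Benjamini-Hochberg adjustment over all genes; the common dispersion was 0.0189. The replicate number was tested with 3 coefficients beside the subfield on the unrepeated libraries. Deviations used log2 CPM with a prior count of 2. The SE is the log2 fold change divided by the square root of F. Python 3.11.15, numpy 2.4.6, pandas 2.3.3, scipy 1.17.1 and matplotlib 3.10.9 did the rest, and the fits were tested on simulated data.

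Alternatives were size factors by median of ratios, DESeq2 1.42.0, other count filters, all 16 columns, the replicate number as a block, and leaving out each library. The 6 genes, the gene lists and the rule for naming genes (from each list up to 4 that passed, and the 5 most alike in pattern) were chosen with earlier results of these data known. 1 listed marker is not reported here.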

Additional observations from a re-analysis of the deposited data

Results flagged for a closer look

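In 34 groups of 4 libraries (17 genes in CA1 and CA3: the 6 immediate early genes, Btg2, Pim1 and Cebpd, and 8 subfield markers), 1 held a library far from the other 3, where chance gives about 1 in 20. Wfs1 stood at 106.4 CPM in CA3 replicate 2, and its gap to the nearest library took up 0.948 of the group's range. Wfs1 is a CA1 marker chosen by the study on these samples, and the cause was not tested. None of the 6 immediate early genes had such a library in CA1 or CA3. Groups of 3 libraries, those of CA2 and DG, were not checked.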

How the results depend on the processing

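The 24 calls of the 6 genes between subfields kept their direction in all 26 alternatives each. With DESeq2, with median-of-ratios size factors and with other count filters all 24 calls passed, and with no filter on low counts 5 of the 12 differences not called passed too. 15 of the 24 passed in every alternative, and of 624 fits 34 lost the call. Of the 12 differences not called, 36 of 312 fits passed and 8 changed sign.

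Changes of sign were seen only for Fos and Junb in CA2 against DG, none of them past the threshold. Fos was 0.29 with a replicate block and the summed libraries in numbers 2 (CA2) and 4 (DG), 0.07 without CA2 replicate 3 and 0.06 without DG replicate 2-4 (-0.66 to 0.068 over the leave-outs). Junb was -0.12 with the repeated libraries left out, with or without a replicate block, -0.11 with a block and the summed libraries in 4 (CA2) and 2 (DG), -0.02 without CA2 replicate 2-4 and -0.04 without DG replicate 2-4 (-0.039 to 0.11 over the leave-outs). The cause was not tested.

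Same-numbered libraries correlated in their deviations over all genes at r from -0.00773 to 0.314 (14 pairs), with 0.230 to 0.314 in the 6 pairs of number 1. 8 of the 14 were above 0.1, against 1 of 38 pairs with different numbers (medians 0.139 and -0.0387), and 11 of 12 libraries correlated best with one of their own number. The column names and descriptions carry a tag that same-numbered libraries share, but no label ties it to a rat. For lack of such a label the main fits did not take the numbers as pairs. That not all 14 were above 0.1 cannot exclude pairing, and whether the numbers stand for rats is open. If they do, the main p-values leave out a pairing that the fits with a block take in. With the number as a replicate block, 23 of the 24 calls passed in all 6 fits with a block, and 1, Npas4 in CA2 against CA3, did not with the repeated columns left out (0.82, edgeR adjusted p = 0.0583). For the 12 differences not called, 23 of 72 results over the same 6 fits with a block passed. Nr4a1 in CA1 against CA2 did so in 4 of 6. Fos in CA1 against CA2, Arc and Junb in CA2 against CA3, and Fos and Junb in CA3 against DG passed in 3 each. Fos in CA1 against DG and Npas4 in CA3 against DG passed in 2 each. Over the 23 results the lowest edgeR adjusted p was 0.000367 (Fos in CA1 against CA2, at 1.22). In CA2 against CA3 the block moved the count of calls from 1313 to 2028, 2079, 2062 and 2219 with the summed libraries placed in numbers, and from 861 to 1569 with them left out. With all 16 columns, a second change, CA1 against CA2 had 2858 calls without a block and 3850 with it, and CA2 against CA3 1737 and 2615.

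Without the summed libraries, an alternative chosen after seeing the data like their placing in a block, CA2 against CA3 gave 861 calls, with fewer libraries. Then 5 of the 24 calls did not pass. Leaving out libraries gave 88 to 2711 calls for the replicate number. Counts per column or library were as low as 16 (Nr4a1), 18 (Npas4) and 25 (Fos), and whether depth limited the differences found was not tested.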
